A study of Arabidopsis thaliana with 10 samples.

Results

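AT3G16370, AT1G29670, AT1G54020 and AT1G75900 are GDSL esterase/lipase-like genes of Arabidopsis thaliana. They were picked because their transcripts differ with leaf stage, the NahG transgene and the ein2 and coi1 mutations. All 4 were lower in wild type at stage 6.0 than at stage 3.9. All 4 were higher in NahG and in ein2 than in stage 6.0 wild type. In coi1, 3 were higher and AT1G54020 was lower, between low signals that cannot be told from background. Each of the 4 genes is named alone by 1 probe set among the 22746 probe sets that are not controls, and all 4 were among the 12184 tested. AT3G16370 lies on chromosome 3 and the other 3 genes on chromosome 1. Transcripts were measured in fully expanded leaves on 10 Affymetrix arrays, in 5 groups of 2 arrays. NahG leaves at stage 6.0 came from plants of Columbia background with a transgene for a bacterial salicylate hydroxylase, which removes salicylic acid, and the labels give neither its promoter nor its line. The ein2 leaves at stage 6.0 came from a Columbia line known as ethylene-insensitive, and the coi1 leaves at stage 6.0 from a Columbia line known as jasmonate-insensitive. Both of these lines carry the same stock code, N3071, and are labelled as transgenic, a conflict in the labels that the files do not settle. No probe set used here checks the NahG, EIN2 or COI1 transcripts. Wild type leaves were taken at stage 6.0 and at stage 3.9, and at each stage array 1 holds stock N933 and array 2 holds stock N1644. Stock N1644 is labelled Col-5 at stage 3.9 and Col-0 at stage 6.0. In the growth scale commonly used for this plant, stage 3.9 is the fully grown rosette and stage 6.0 the opening of the first flower. All plants grew in compost in a growth room without treatment.

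GDSL lipases are serine hydrolases named after a short motif that holds the active serine. Plants have a large family of them, many with a signal for secretion, and members act on lipids or esters in the cuticle, in seed oil, in defence and beside the enzymes that break down glucosinolates. Salicylic acid, ethylene and jasmonate are the hormones whose action NahG, ein2 and coi1 remove or block, and all of them take part in leaf senescence and in defence. The tables used here give no gene symbol beyond the locus name for any of the 4 genes, and no role specific to one of them is assumed below.

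The values are MAS5 signals on a linear scale, where the trimmed mean of every array is 100. For NahG, ein2 and coi1 nothing in the labels tells whether both arrays came from separate plants, so their spread may be technical, while the wild type arrays of a stage come from different stocks and their spread includes any difference between stocks. The limma p-values measure only the spread between these arrays, and 2 arrays a group limit the precision of every value. Between 9738 and 10835 probe sets an array reached a signal of 50. In whole leaves, fewer cells that hold a transcript and less transcript per cell cannot be told apart. Of 10 green mesophyll markers 5 had a named probe set, and their summed signal ran from 4711 to 5893 in wild type at stage 6.0, against 16940 to 23109 at stage 3.9. It ran from 7344 to 7656 in NahG, 5331 to 5741 in ein2 and 6196 to 7680 in coi1. Of 6 senescence-associated markers 4 had a named probe set. Their summed signal ran from 605.1 to 1287 in wild type at stage 6.0, against 122.7 to 188.8 at stage 3.9. It was 993.5 to 1224 in NahG, within the range of stage 6.0 wild type. In ein2 it was 458.9 to 503.4 and in coi1 486.7 to 537.4, below both of those wild type arrays. A sum can hide changes of single markers. In NahG 3 of the 5 green markers were higher and 1 of the 4 senescence markers lower at a limma adjusted p under 0.05. Of all tested probe sets, 3.61% were higher and 5.5% lower in NahG. No marker of these 2 lists passed in ein2 or coi1. The part of these cell states in the differences below was not tested. No named probe set was found for the markers of floral organs, epidermis, vascular tissue or dividing cells.

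Distinct patterns appeared among the 4 genes. AT3G16370 and AT1G29670 had high signals in green leaves and low ones in every stage 6.0 group. AT1G75900 was intermediate, with ein2 leaves close to the stage 3.9 level. AT1G54020 had high signals in NahG leaves and low ones in all other groups. These values chose the genes, so they are given as a description and not as a test.

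**Figure D1:**
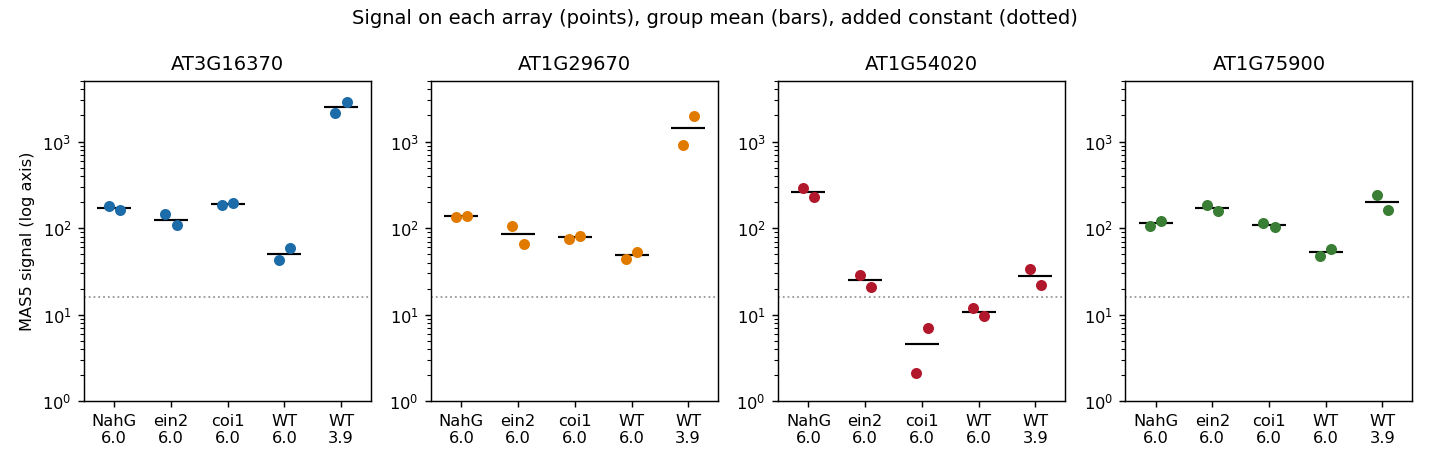
Signal of each gene (log axis) on the 2 arrays of each group, with points for arrays, bars for group means and a dotted line at 16, the constant added before logs were taken. AT3G16370 and AT1G29670 peak at stage 3.9 with means of 2501 and 1440, AT1G54020 peaks in NahG at 260.3, and AT1G75900 is lowest in wild type at stage 6.0 at 53.0.

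AT3G16370 had signals of 43.1 and 58.8 in wild type leaves at stage 6.0, against 2156 and 2847 at stage 3.9. Both late arrays were thus far under both early arrays, with a mean 49.1-fold lower. On the scale of log2(signal + 16), the difference was -5.23 ± 0.21 (SE, n = 2 arrays per group), the fourth lowest of all tested probe sets in that comparison. The median of all tested probe sets was 0.05.

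In the altered genotypes AT3G16370 stood above wild type of the same stage. Signals were 179 and 164 for NahG leaves, 144 and 107.5 for ein2 leaves, and 187 and 195 for coi1 leaves, against 43.1 and 58.8 for wild type. No array of an altered genotype reached down to the wild type arrays, and the 6 altered arrays lay between 107.5 and 195. Differences from wild type were 1.49 ± 0.21 in NahG, 1.08 ± 0.21 in ein2 and 1.64 ± 0.21 in coi1 (log2 ± SE). The order of means was stage 3.9, coi1, NahG, ein2 and stage 6.0 wild type, and no neighbours in that order overlapped between arrays. The gap between NahG and coi1 was small, at -0.14 ± 0.21. All 3 genotypes lay far below green leaves, at 6.86% of the stage 3.9 mean in NahG, 5.03% in ein2 and 7.63% in coi1, against 2.04% in stage 6.0 wild type.

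AT1G29670 followed the same early to late contrast. Wild type leaves had signals of 44.6 and 52.8 at stage 6.0, against 909 and 1972 at stage 3.9. The early arrays differed from each other more than the 2 arrays of any other group did, and both still lay far above the late ones. The difference was -4.39 ± 0.31 on the log2 scale, with a mean 29.6-fold lower.

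Among genotypes AT1G29670 was highest in NahG, at 136 and 137. It stood at 106 and 65.3 in ein2 and at 74.9 and 81.5 in coi1, against 44.6 and 52.8 in wild type at stage 6.0. All 6 altered arrays exceeded both wild type arrays, and ein2 and coi1 overlapped each other. The differences from wild type were 1.24 ± 0.31 in NahG, 0.63 ± 0.31 in ein2 and 0.54 ± 0.31 in coi1 (log2 ± SE). The ein2 value depended on the array, with 0.33 without ein2 array 1 and 0.92 without array 2. NahG leaves had 9.49% of the stage 3.9 mean, ein2 leaves 5.96% and coi1 leaves 5.43%, against 3.38% in stage 6.0 wild type.

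AT3G16370 and AT1G29670 shared the stage contrast but not the order of genotypes. NahG exceeded coi1 for AT1G29670, with a difference of 0.70 ± 0.31 (log2 ± SE), while the same difference for AT3G16370 was -0.14 ± 0.21. The ein2 arrays were the lowest altered ones for AT3G16370 and overlapped coi1 for AT1G29670.

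AT1G75900 had signals of 48.2 and 57.9 in wild type at stage 6.0, against 242 and 162 at stage 3.9. Its mean was 3.81-fold lower at the late stage, a difference of -1.64 ± 0.20 (log2 ± SE). Scaled to the hybridisation controls this was -0.94 ± 0.44.

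The means of all 3 altered genotypes lay between those wild type stages for AT1G75900, ein2 highest. NahG arrays read 106 and 122, ein2 arrays 187 and 157, and coi1 arrays 116 and 103, against 48.2 and 57.9 for wild type at stage 6.0. No altered array overlapped the wild type arrays of that stage. The ein2 arrays overlapped those of stage 3.9, and NahG and coi1 overlapped each other. Differences from stage 6.0 wild type were 0.91 ± 0.20 in NahG, 1.44 ± 0.20 in ein2 and 0.87 ± 0.20 in coi1 (log2 ± SE). Against the stage 3.9 arrays they were -0.73 ± 0.20 in NahG, -0.19 ± 0.20 in ein2 and -0.77 ± 0.20 in coi1. The ein2 mean was 85.2% of the stage 3.9 mean, that of NahG 56.3% and that of coi1 54.4%, against 26.3% in stage 6.0 wild type.

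AT1G54020 gave a different picture, with high signals in 1 genotype. NahG leaves had signals of 290 and 231, ein2 leaves 29.0 and 20.9, and coi1 leaves 2.11 and 7.05, against 11.9 and 9.76 in wild type at stage 6.0. Stage 3.9 wild type stood at 33.5 and 22.1. Only the 2 NahG arrays reached 50, so the gene entered the tests through that group alone, and without detection calls the low signals cannot be told from background.

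The NahG mean of AT1G54020 was 24.1 times that of wild type, a difference of 3.36 ± 0.25 (log2 ± SE). The wild type mean of 10.8 lies under the added constant, so the size depends on that constant: the difference was 4.46 when it was 1 and 2.11 when it was 64. Against stage 3.9 the NahG difference was 2.66 ± 0.25. The coi1 arrays lay below both wild type arrays of their stage, at -0.39 ± 0.25, and the ein2 arrays above them, at 0.60 ± 0.25. With 64 added, those values were -0.13 and 0.25. The coi1 value was -0.22 without coi1 array 1 and -0.57 without array 2. The stage difference was -0.70 ± 0.25, again between signals below 50, and -0.27 ± 0.43 when scaled to the hybridisation controls. NahG against coi1 gave the widest gap between genotypes of this gene, 3.75 ± 0.25, and the ein2 arrays overlapped those of stage 3.9.

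**Figure D2:**
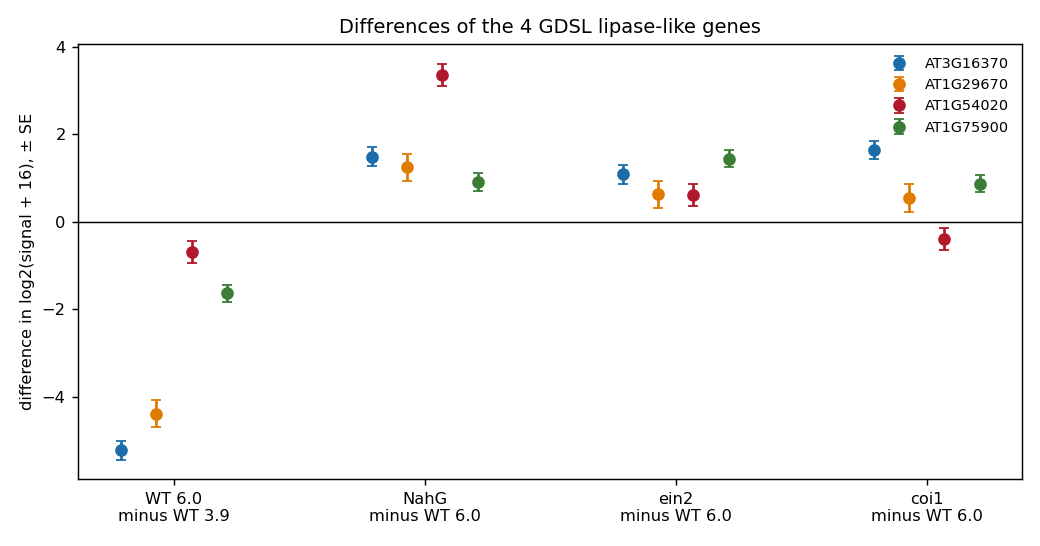
Difference in log2(signal + 16) of each gene in 4 comparisons (points, bars ± SE, 2 arrays per group). All 4 genes are lower at stage 6.0 in wild type, from -5.23 to -0.70. All are higher in NahG, from 0.91 to 3.36, and AT1G54020 alone lies under 0 in coi1, at -0.39.

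Set side by side, all 4 genes had both late wild type arrays under both early ones, a separation seen in 30.8% of the tested probe sets. All 4 lay above wild type in both NahG arrays, as did 26.6% of the tested probe sets, and in both ein2 arrays, as did 20.1%. In coi1, 3 lay above wild type (28.7%) and AT1G54020 below it (20.2%). AT3G16370, AT1G29670 and AT1G75900 had all 6 altered arrays above both wild type arrays, which 6.18% of the tested probe sets showed. Because the genes were chosen on these comparisons, nothing is read from the counts. The 2 stage 6.0 wild type arrays enter every one of these comparisons, so a low signal on them lowers the stage difference and raises all 3 genotype differences together.

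Measures of the arrays also moved with stage, and some of them with genotype. The hybridisation controls are added bacterial and phage transcripts. Their geometric mean signals were 233 and 257 in stage 6.0 wild type, against 443 and 413 at stage 3.9. The ratio of the 3' to the 5' signal of ubiquitin, a measure of RNA integrity, was 1.34 and 1.30 in stage 6.0 wild type, against 2.12 and 2.24 at stage 3.9. NahG arrays had ratios of 1.66 and 1.60, ein2 arrays of 1.45 and 1.52, and coi1 arrays of 1.38 and 1.54, all above both stage 6.0 wild type arrays. The same ratio for actin was 2.08 and 1.77 in stage 6.0 wild type, against 2.43 and 2.70 at stage 3.9. For actin the NahG arrays, at 2.60 and 2.11, again lay above both stage 6.0 wild type arrays. The ein2 arrays, at 2.06 and 1.95, and the coi1 arrays, at 1.54 and 2.56, overlapped them. The hybridisation controls read 299 and 231 for NahG, 268 and 343 for ein2, and 183 and 367 for coi1. In these controls NahG and coi1 overlapped stage 6.0 wild type. The part of these measures in the stage and genotype differences was not tested. Scaled to those controls, the stage difference of AT3G16370 was -4.50 ± 0.46 and that of AT1G29670 -3.67 ± 0.45, while the median of all tested probe sets became 0.71.

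The 2 wild type stocks give the only comparison that did not choose the genes. AT1G29670 had signals of 52.8 and 1972 in stock N1644 at stages 6.0 and 3.9, against 44.6 and 909 in stock N933. It was higher in N1644 at both stages, with a difference of 0.64 ± 0.25 (log2 ± SE), and did not pass (limma adjusted p = 0.405). The AT1G29670 difference was 0.18 without either stage 3.9 array and 1.10 without either stage 6.0 wild type array. AT3G16370 was also higher in N1644 at both stages, at 0.37 ± 0.18 (limma adjusted p = 0.553). AT1G54020 was lower in N1644 at both stages, at -0.25 ± 0.25 (limma adjusted p = 0.820). The AT1G54020 value was -0.11 without either stage 3.9 array and -0.38 without either stage 6.0 wild type array. Its wild type signals, from 9.76 to 33.5, cannot be told from background, so no direction is read from them. AT1G75900 was higher in N1644 at stage 6.0 and lower at stage 3.9, with a difference of -0.17 ± 0.21 (limma adjusted p = 0.860) that turned to 0.20 without either stage 3.9 array. None of the 4 genes passed, and 4 of the 12184 probe sets did, which is 0.0328%. With 1 array per stock and stage these intervals are wide, and a difference of the size seen for AT1G29670 was not shown to be absent.

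Other GDSL family genes were counted to see how common such changes are in the family. Besides the 4 genes, 110 loci were listed, 71 had a probe set naming them alone and 25 were tested. Between stages 11 of the 25 fell (44%) and 4 rose (16%) at an adjusted p under 0.05 in limma, against 17.2% and 20.2% of all tested probe sets. The median over these family genes was -0.34, against 0.05 over all tested probe sets. Scaled to the hybridisation controls, 5 fell and 5 rose, where 407 of all 12905 probe sets then tested fell and 3886 rose. The 46 loci with a named probe set that were not tested did not reach a signal of 50 on 2 arrays, so the count does not cover the whole family. Of the genes that fell, AT1G09390, AT1G33811, AT2G04570, AT3G53100 and AT4G18970 reached 50 on the 2 stage 3.9 arrays alone. They entered the tests through the group where they were high, so the share of falls is not read as a family trait. With a filter of 100 on 2 arrays, 7 family genes fell and 4 rose, against 1590 and 2097 of the 8146 probe sets then tested.

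AT1G29660, the gene annotated next to AT1G29670, had the lowest stage difference among those 25. Its signals were 23.5 and 66.3 in wild type at stage 6.0, against 840 and 1015 at stage 3.9, a log2 difference of -4.04 ± 0.30 (SE, limma adjusted p = 4.47e-06). Both neighbours were thus low on the late arrays. In the genotypes they differed in array separation. NahG arrays of AT1G29660 read 57.1 and 62.0, ein2 arrays 59.9 and 40.4, and coi1 arrays 40.0 and 49.4, against the same 23.5 and 66.3 for wild type, and all 3 genotypes overlapped wild type. Its NahG difference was 0.41 ± 0.30 (limma adjusted p = 0.459). Whether the probe sets of these neighbours also bind each other's transcripts was not tested.

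AT5G45950 and AT1G33811 also fell, with differences of -2.97 ± 0.19 and -2.49 ± 0.28 (log2 ± SE). The genotype arrays of AT5G45950, from 28.6 to 56.3, all lay above the wild type values of 19.0 and 22.2 at stage 6.0. AT3G16370, AT1G29670 and AT1G75900 had this separation too, as did AT1G28570 and AT3G05180 of the family and 6.18% of the tested probe sets. None of the genotype differences of AT5G45950 passed. AT1G33811 had a stage 6.0 wild type mean of 17.3, near the added constant. Against this direction, AT1G28600, AT5G03610 and AT1G28580 rose with stage by 1.51 ± 0.17, 1.22 ± 0.26 and 1.11 ± 0.23, whereas all 4 chosen genes were lower.

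Between genotypes the calls among other family genes were counted in the same way. In NahG 1 of 25 rose and 1 fell (4% each), against 3.61% and 5.5% of all tested probe sets. In coi1 1 rose and 1 fell (4% each), against 0.386% and 0.624%. In ein2 0 of 25 passed in limma, where 15 of all 12184 probe sets (0.123%) passed. At an unadjusted p under 0.05 in limma the family counts were 8 in NahG, 7 in ein2 and 5 in coi1, against 2813, 1227 and 1745 of the 12184 probe sets. AT2G03980 was the gene that rose in NahG and fell in coi1. NahG arrays read 792 and 673, ein2 arrays 239 and 231, and coi1 arrays 126 and 123, against 463 and 277 for wild type at stage 6.0 and 314 and 360 at stage 3.9. NahG arrays lay above all others and coi1 arrays below all others. The differences were 0.99 ± 0.23 in NahG (limma adjusted p = 0.0200) and -1.41 ± 0.23 in coi1 (limma adjusted p = 0.0165). The NahG call was lost without stage 6.0 wild type array 2 or either NahG array, and the coi1 call without stage 6.0 wild type array 1 or either coi1 array. Both AT2G03980 calls were also lost when scaled to the hybridisation controls. A fit over the 2 groups compared lost the NahG call too, and leaving out the filter the coi1 call. Unlike AT1G54020, AT2G03980 was well measured in every group, and its stage difference was 0.09 ± 0.23. AT1G28600 fell in NahG, with a difference of -0.63 ± 0.17, and AT1G28570 rose in coi1 by 0.83 ± 0.16. Both of these calls were lost without any 1 of the 8 stage 6.0 arrays. They were also lost without a filter, scaled to the hybridisation controls and in a fit over the 2 groups compared.

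**Figure D3:**
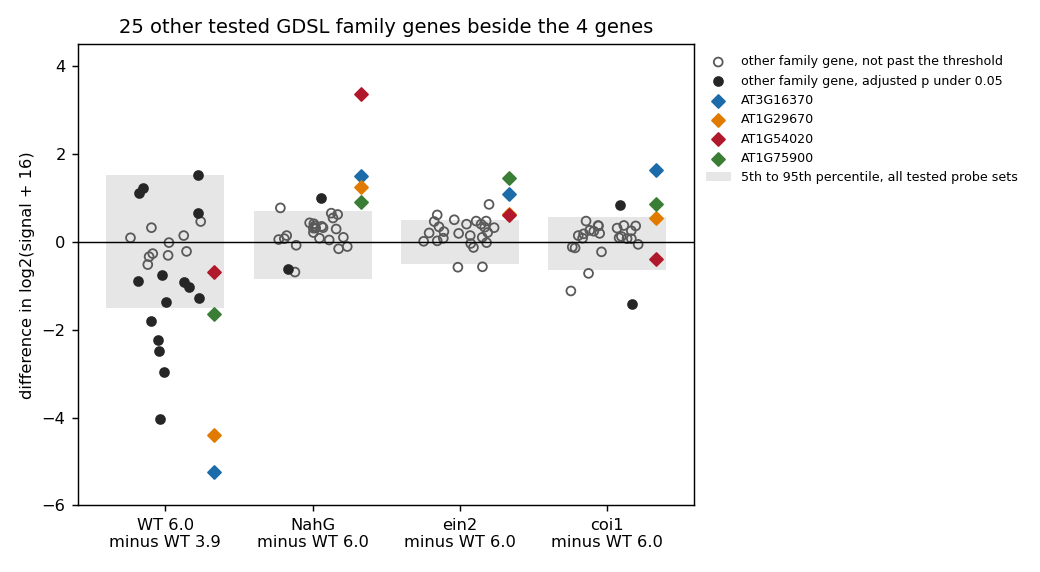
Difference in log2(signal + 16) of the 25 other tested GDSL family genes (circles, filled where the limma adjusted p was under 0.05) and of the 4 chosen genes (diamonds), over the 5th to 95th percentile of all tested probe sets (grey). Between stages in wild type the 25 other genes range from -4.04 to 1.51, and between ein2 and wild type from -0.58 to 0.85.

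The loci around AT1G54020 and AT1G75900 hold further family genes. Of the 6 near AT1G54020, among them GLIP2, GLIP3, GLL22 and MVP1, none has a probe set naming it alone here. Of the 5 near AT1G75900, which include the extracellular lipase genes EXL4 and EXL6, 3 have one. AT1G75880 reached at most 24.7, AT1G75890 at most 19.0 and AT1G75920 at most 44.2 on any array, and none was tested. Of the 4 genes of that stretch with a named probe set, AT1G75900 alone reached a signal of 50. ATA27, the 1 named marker of pollen and tapetum, stayed between 0.302 and 6.44 over all arrays.

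The genes most like each of the 4 were those with the highest Pearson correlation of log2(signal + 16) over the 10 arrays, among 6451 other tested probe sets naming 1 gene. These correlations describe the arrays, which share their groups, and carry no test. For AT3G16370 they were SP1L3, a SPIRAL1-like gene (r = 0.986), AT5G59250 (r = 0.984) and SAH7 (r = 0.982). The stage 3.9 arrays stand far from the others for these genes, and over the 8 stage 6.0 arrays r was 0.875, 0.945 and 0.878. AT5G59250 had means of 38.4 in NahG, 26.1 in ein2 and 47.5 in coi1, against 9.21 in stage 6.0 wild type and 209 at stage 3.9, the same order of groups as AT3G16370. SP1L3 and SAH7 had another order, with NahG above coi1. Their NahG means were 253 and 211, against coi1 means of 229 and 177. In all, 103 probe sets had an r over 0.95 with AT3G16370, and 97 with AT1G29670.

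For AT1G29670 the closest were WLIM2a, a LIM domain protein gene (r = 0.985), AT2G22230 (r = 0.984) and PRA1.F1 (r = 0.984). Over the 8 stage 6.0 arrays these were 0.925, 0.831 and 0.836. WLIM2a stood at 50.2 on both NahG arrays, at 34.4 and 19.8 on the ein2 arrays and at 22.2 and 21.5 on the coi1 arrays, against 18.4 and 22.0 for wild type at stage 6.0 and 148 and 195 at stage 3.9. It was thus highest in NahG among the late leaves, as was AT1G29670.

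AT1G54020 had 10 probe sets with an r over 0.95, and the closest were AT3G27400 (r = 0.985), PR-1-LIKE (r = 0.982) and AT2G41800 (r = 0.978). All 3 were high in NahG. For AT3G27400 NahG arrays read 1060 and 697, ein2 arrays 88.3 and 87.6, and coi1 arrays 24.1 and 31.0, against 46.2 and 31.2 for wild type at stage 6.0. For PR-1-LIKE NahG arrays read 505 and 341, ein2 arrays 38.2 and 33.3, and coi1 arrays 15.4 and 11.2, against 24.5 and 28.8 for wild type at stage 6.0. For both of these genes the coi1 arrays were below the wild type arrays of their stage. AT2G41800 had low signals in coi1 and in stage 6.0 wild type, 4.02 and 2.72 against 11.6 and 2.11, which overlapped. Over the 8 stage 6.0 arrays r was 0.996, 0.990 and 0.989, and the 2 NahG arrays stand apart in each.

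No probe set reached an r of 0.95 with AT1G75900. The closest were FOLB2, a folate synthesis gene (r = 0.930), AT1G78170 (r = 0.910) and AT2G35470 (r = 0.906). AT1G78170 had means of 65.0 in NahG, 79.3 in ein2 and 57.9 in coi1, against 39.3 in stage 6.0 wild type and 119 at stage 3.9, the same order of groups as AT1G75900. FOLB2 had this order too but varied little, between 62.4 and 104 over all arrays. AT2G35470 had another order, with a coi1 mean of 122 above the ein2 mean of 116.

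**Figure D4:**
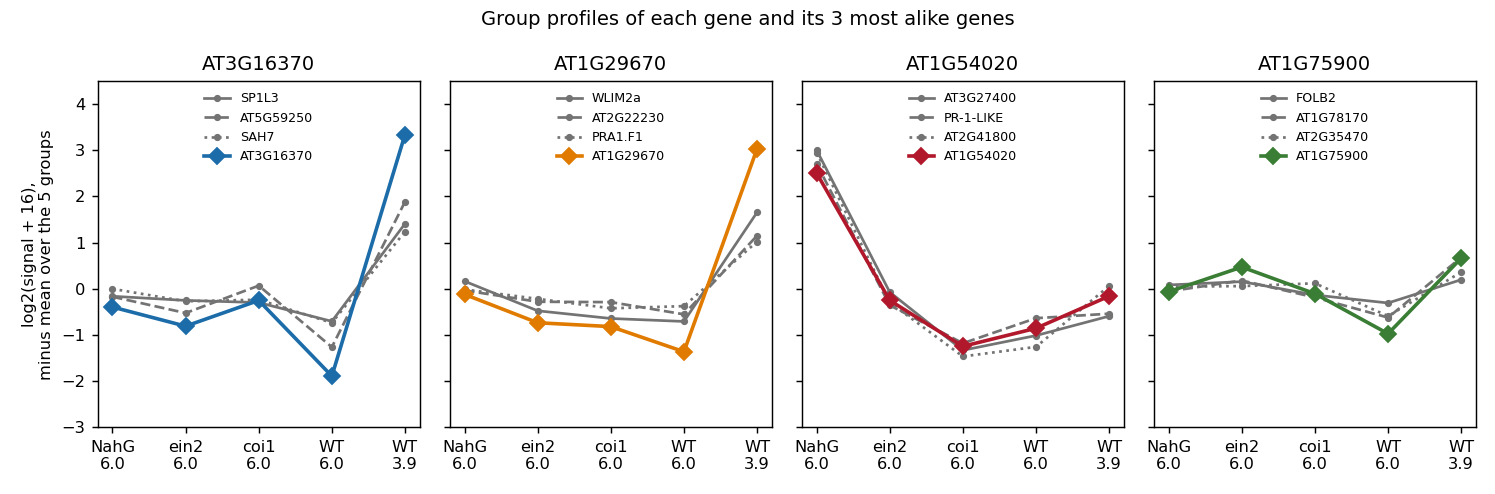
Group means of log2(signal + 16), each minus its mean over the 5 groups, for each gene (colour) and its 3 most alike genes (grey). AT3G16370 and AT1G29670 and their most alike genes peak at stage 3.9, AT1G54020 and its most alike genes peak in NahG, and AT1G75900 has its lowest value in wild type at stage 6.0.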

How the data were processed

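Leaf RNA was hybridised to 10 Affymetrix arrays. The authors deposited 1 intensity value per probe set and array, a MAS5 signal per the submitters' processing notes, its version not given in the sources used here. No detection calls were used here. The 64 control probe sets were left out, and a factor per array set the trimmed mean (2% off each end) to 100. Those reaching 50 on 2 arrays or more were tested on log2(signal + 16) with limma 3.58.1 (lmFit, eBayes with trend, Benjamini-Hochberg adjustment, threshold 0.05) under R 4.3.3. All 10 arrays entered 1 fit with 5 group means, leaving 5 residual degrees of freedom. The median SE of the log2 stage difference was 0.213. The stock difference was fitted with a stock term for the 4 wild type arrays. Values after ± are standard errors. Further tools were matplotlib 3.10.9, scipy 1.17.1, numpy 2.4.6, pandas 2.3.3 and python 3.11.15. The procedure was tested on simulated data.

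Probe sets were matched to loci through GEO's platform annotation, and symbols and neighbours were taken from the RefSeq TAIR10.1 gene table. The genome build was not given in the sources used here, so no coordinates are given, and no sequences were used. The 114 GDSL loci were listed from general knowledge of the family, and the RefSeq names of 12 state GDSL or lipase. The 4 genes and all lists were chosen with earlier results of these data known. Named family genes are the 3 largest rises and falls past the threshold per comparison and loci near the 4 genes. Alternatives were the added constant, the filter, the scaling, 2-group fits and leaving out arrays. Deviations of wild type arrays of the same stock from their group means correlated at 0.0762 between stages, which does not pair them.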

Additional observations from a re-analysis of the deposited data

How the results depend on the processing

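All 292 values of the 4 genes in the stage and genotype comparisons kept their direction under the alternatives, and 257 of them stayed within 1 standard deviation. Many of these values could not move. A changed filter, a 2-group fit, the stock code as a block and leaving out an array of another group all keep the 2 group means compared. The counts include those values, so they say little about how firm the differences are. With 64 added, AT1G54020 measured -0.29 for stage and AT1G75900 0.60 in NahG and 0.57 in coi1. For stock, AT1G75900 ranged from -0.54 to 0.20 on leaving out 1 array. The counts of all tested probe sets moved more, and the cause was not tested. Without a filter the count was 3 for ein2 against 15, 37 for coi1 against 123 and 0 for stock against 4 (limma, 1191 at an unadjusted p under 0.05 with the filter), and scaled to the hybridisation controls it was 421 for NahG against 1110 and 47 for ein2. With 1 added the stock count was 7. Leaving out 1 array gave 3202 to 4420 calls for stage, 455 to 1359 for NahG, 0 to 76 for ein2, 13 to 308 for coi1 and 0 to 301 for stock. In limma the stage count of 4560 was 4761 with the stock code as a replicate block, and 15 family genes passed in both. The family count of 2 in NahG was 1 without a filter, 0 scaled to the controls, 0 in a 2-group fit and 0 to 2 on leaving out 1 array. That of 2 in coi1 was 0 without a filter, 0 scaled to the controls, 1 in a 2-group fit and 0 to 3 on leaving out 1 array. For stage the family count was 12 to 14 on leaving out 1 array. The controls scaling gave 3886 rises and 407 falls with stage, against 2461 and 2099. The altered genotypes could not be paired with wild type by number, since the wild type labels carry none. With 2 arrays a group, signals near or under 16 have no firm fold.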
